A study of Mus musculus with 12 samples.

Results

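Long noncoding RNAs (lncRNAs) of the Ugt2 region of mouse chromosome 5 were followed across 12 liver RNA libraries from CD-1 mice, an outbred stock, aged 8 weeks. The members were all lncRNAs of the deposited sheet that lie inside a 1-Mb window of build mm9 and are above 0 in any library. This rule found 12 of the 12497 lncRNAs above 0 in the series. The first starts at chr5:87007862 and the last ends at chr5:87807139. The window held 13 entries in all, and ncRNA_inter_chr5_4327 (chr5:87233249-87233501, minus strand) was at 0 in every library. The mice had been injected with TCPOBOP, an agonist of the mouse nuclear receptor CAR, or with PCN, a steroid that activates the rodent nuclear receptor PXR. No library used here came from vehicle-treated mice, so each agonist was compared only with the other.

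The libraries formed 8 groups, and every library was made from polyadenylated RNA pooled from several livers. Nuclear RNA was taken 3 h after TCPOBOP from females (3 pools of 3 or 4 livers, experiment code G86) and from males (3 pools of 4 livers, code G95), and 3 h after PCN from males (1 library of 2 livers, code G81). These 7 libraries were unstranded. Whole-liver RNA came only from males of code G81, 6 livers to a library. It gave 1 unstranded library 3 h after TCPOBOP and 4 strand-specific libraries, which were TCPOBOP at 6 h, PCN at 6 h, TCPOBOP at 3 h and PCN at 3 h. Nothing in the labels says whether the unstranded and stranded whole-liver libraries came from the same livers.

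Ugt2 genes encode UDP-glucuronosyltransferases, enzymes of the endoplasmic reticulum that join glucuronic acid to lipophilic substrates so that these can be excreted in bile or urine. Substrates of the Ugt2b enzymes include steroid hormones, bile acids and many drugs. CAR and PXR are nuclear receptors of the hepatocyte that switch on genes for drug oxidation, conjugation and transport when an agonist binds. A lncRNA has no evident protein product, and an antisense lncRNA is read from the strand opposite a gene, whose own transcript then overlaps it.

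The sheet pairs none of the 12 lncRNAs with a gene, and the mouse annotation at hand was of another build, GRCm38. The label of the region could therefore not be tested against the members' own coordinates, and the lncRNAs are named here by their identifiers and mm9 positions. The gene opposite each antisense lncRNA is not stated for the same reason. In the order of genes on GRCm38 chromosome 5, RefSeq lists a run of 10 Ugt2 genes (7 Ugt2b and 3 Ugt2a) and 12 pseudogenes. Genes of the Tmprss11 protease family and Ythdc1, an N6-methyladenosine reader, come before that run, and the sulfotransferase genes Sult1b1, Sult1d1 and Sult1e1 follow it.

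Of the 12 lncRNAs, 9 were classed in their identifiers as intergenic and 3 as antisense to a gene. The plus strand held 8 and the minus strand 4. The antisense members were ncRNA_as_chr5_4325 (chr5:87007862-87021678, plus), ncRNA_as_chr5_4328 (chr5:87257061-87264799, minus) and ncRNA_as_chr5_4334 (chr5:87729311-87807072, plus). A compact row of 5 intergenic lncRNAs lay in the middle of the window, all on the plus strand. In order they were ncRNA_inter_chr5_4329 (chr5:87380811-87385488), ncRNA_inter_chr5_4330 (chr5:87399341-87401473), ncRNA_inter_chr5_4331 (chr5:87418234-87419209), ncRNA_inter_chr5_4332 (chr5:87428407-87428708) and ncRNA_inter_chr5_4333 (chr5:87446888-87448181). Gaps between neighbours in this row were 9197 to 18179 bases.

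Another 3 intergenic members lay on the minus strand inside or at the edge of the span of ncRNA_as_chr5_4334. They were ncRNA_inter_chr5_4335 (chr5:87774192-87779869), ncRNA_inter_chr5_4336 (chr5:87805320-87806627) and ncRNA_inter_chr5_4337 (chr5:87806773-87807139). ncRNA_inter_chr5_4326 (chr5:87062134-87063386, plus) was the remaining intergenic lncRNA. For 11 of the 12 the length recovered from the values equalled the full span. ncRNA_as_chr5_4334 was the exception, with a recovered length of 15450 bases in a span of 77762 bases. Its span covered all 5678 bases of ncRNA_inter_chr5_4335, all 1308 of ncRNA_inter_chr5_4336 and 300 of ncRNA_inter_chr5_4337. Whether any of these lie among its 15450 counted bases is not known. In unstranded libraries, reads from bases counted on both strands, or from an antisense lncRNA and the gene across from it, cannot be told apart.

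**Figure D1:**
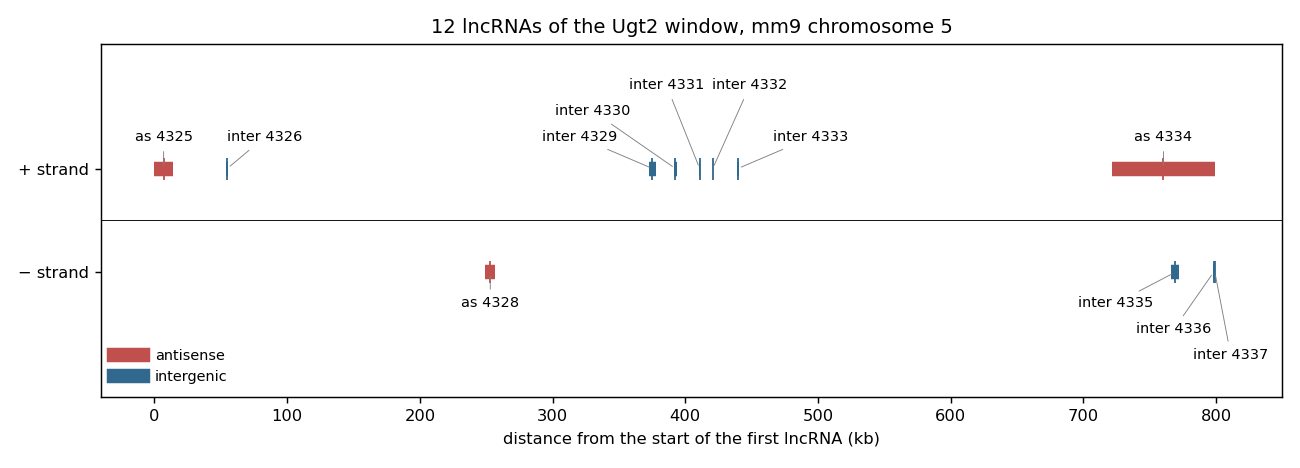
Positions of the 12 lncRNAs by strand, as distance in kb from the start of the first, with antisense lncRNAs in red and intergenic ones in blue; small ticks mark the centres. The 5 intergenic lncRNAs in the middle share the plus strand, and 3 on the minus strand lie within or at the end of the long antisense lncRNA on the right.

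Library totals, recovered from steps in the values, were 22.86 to 31.98 M reads in female nuclear pools and 7.31 to 11.9 M in male nuclear pools, where M stands for 1e6. The nuclear PCN library held 21.94 M, the unstranded whole-liver library 40.29 M, and the stranded libraries 25.17 to 27.85 M. All lncRNAs together took 3.782% to 5.091% of reads in unstranded libraries and 0.794% to 0.918% in stranded ones. Values are RPKM, which scales reads by length and by library total, so levels of different lncRNAs can be set side by side. A count of 0 reads allows up to 3 reads, a floor that covers counting error in that library only. Folds given against 3 reads take the other value as it stands, without its own counting error. Since most members are low, reads are given beside the values that results turn on.

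Levels differed widely among the 12. ncRNA_inter_chr5_4332, a 302-base intergenic lncRNA, had the highest mean over the 12 libraries, 2.13 RPKM. ncRNA_as_chr5_4328 with 1.66, ncRNA_as_chr5_4334 with 1.63 and ncRNA_inter_chr5_4330 with 1.01 followed. The means of these 4 are not ordered beyond the spread of their libraries, which ran from at or near 0 to several RPKM for each. Reads of the antisense lncRNAs among them came almost wholly from the unstranded libraries. The other 8 had means of 0.0385 RPKM (ncRNA_inter_chr5_4326) to 0.467 RPKM (ncRNA_inter_chr5_4335). The highest of the 12 values was in a male nuclear TCPOBOP pool for 10 lncRNAs and in a stranded library for the other 2, ncRNA_inter_chr5_4336 and ncRNA_inter_chr5_4337. The share of all lncRNAs that peaked in a male nuclear pool was not counted. These pools were the shallowest libraries. The highest value rested on 3 reads for ncRNA_inter_chr5_4326 and on 4 reads for ncRNA_inter_chr5_4331.

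Summed over the members, RPKM was 7.18 ± 2.34 in female nuclear pools and 19.0 ± 3.37 in male nuclear pools (SD, n = 3 each). The 3 antisense members gave 4.31 ± 1.03 of this in females and 7.73 ± 0.804 in males, and the row of 5 intergenic members 2.13 ± 1.38 in females and 10.04 ± 2.12 in males. By reads instead, the members took 41.27, 72.21 and 50.23 per M reads of the library in the female pools and 128.3, 92.01 and 124.2 in the male pools. Every female pool lay below every male pool in each of these sums. For single lncRNAs this held for 19.6% of all those tested between the sexes, and sums over other sets of lncRNAs were not made. The sums share members with each other and with the tests below, so they are a description only. The nuclear PCN library had 29.94 reads per M and the unstranded whole-liver library 20.05. The stranded libraries had 1.634 to 2.424.

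**Figure D2:**
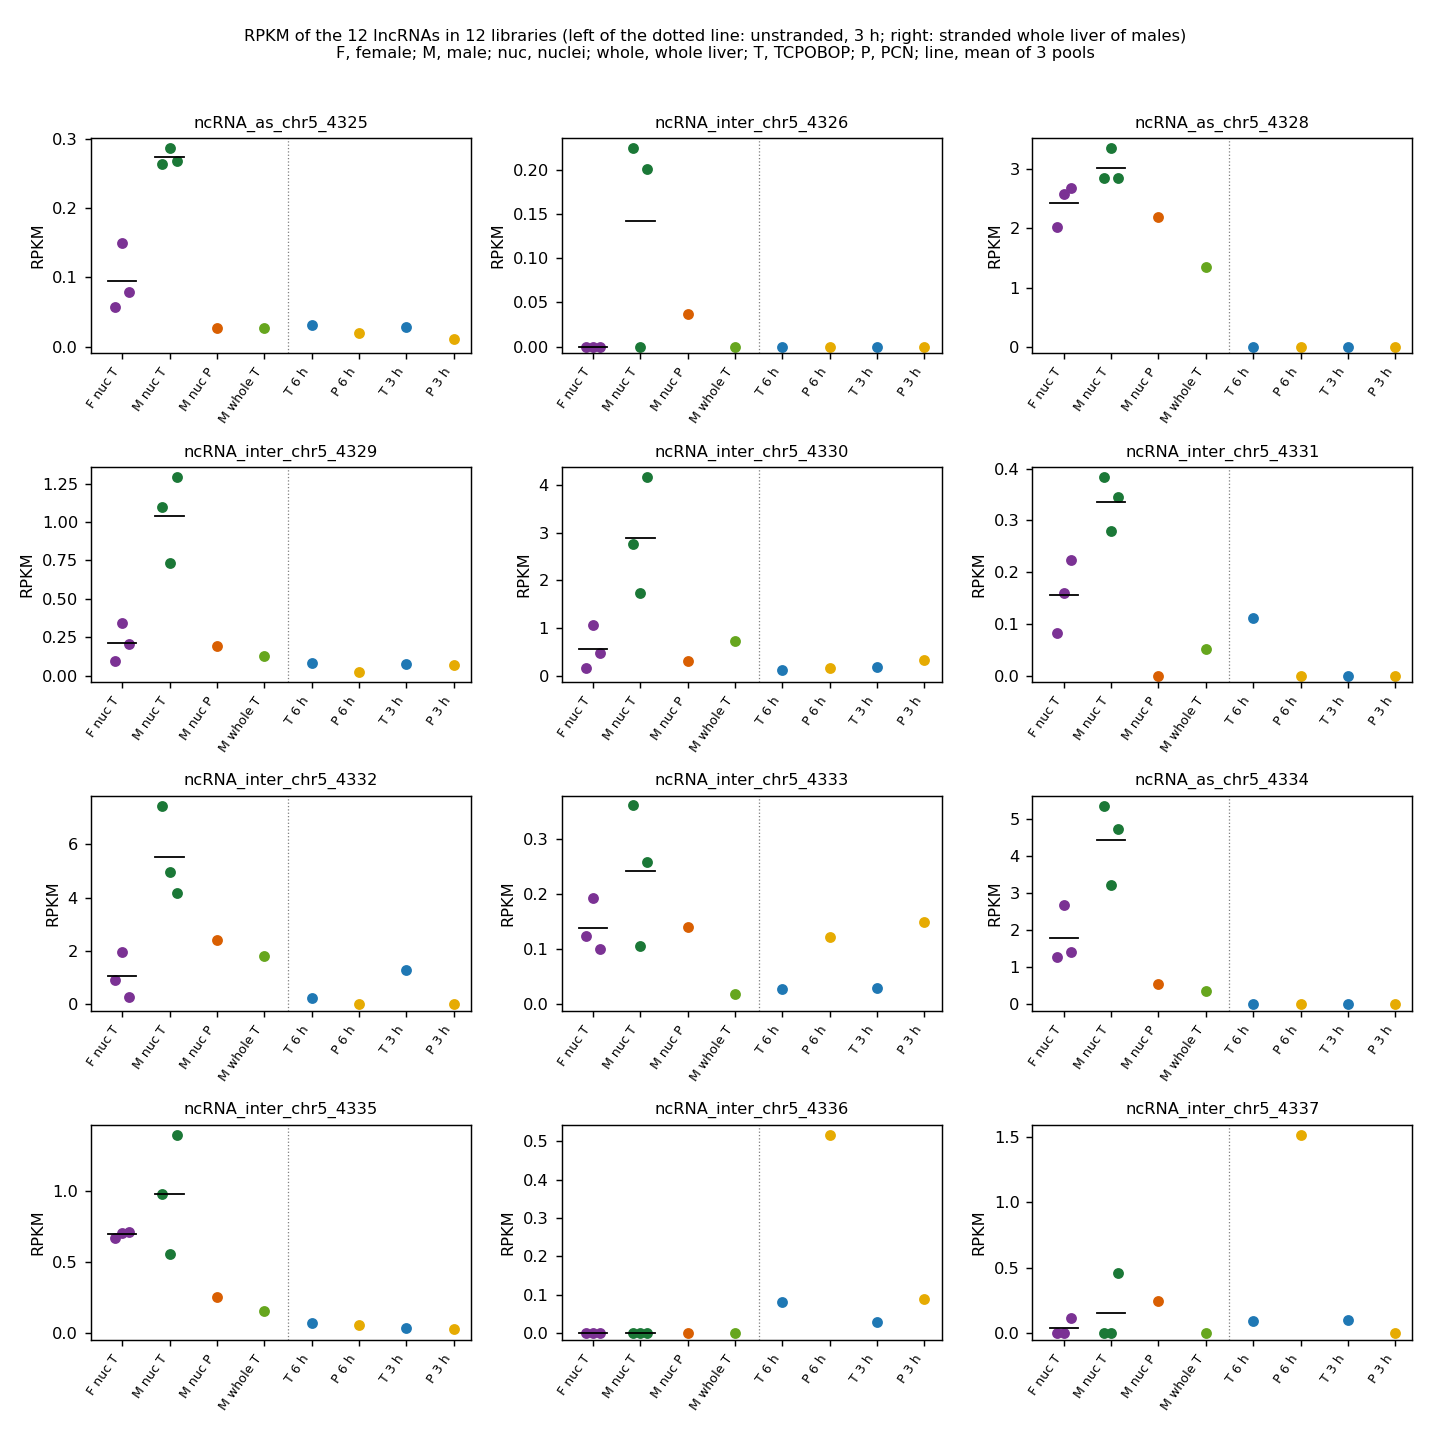
RPKM of each of the 12 lncRNAs in every library, on linear axes that differ between panels; horizontal lines are means of 3 pools, and groups without a line are 1 library. For most members the male nuclear TCPOBOP pools are the highest points, ncRNA_as_chr5_4328 is at 0 in all 4 stranded libraries, and ncRNA_inter_chr5_4336 and ncRNA_inter_chr5_4337 peak in the stranded PCN library at 6 h.

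The first comparison was of female (G86) with male (G95) nuclei 3 h after TCPOBOP, with limma on log2(RPKM + 0.1) across 5951 lncRNAs and Benjamini-Hochberg adjustment. A call was an adjusted p under 0.05. Of the 9 members that passed the filter on low values, 4 fell in females, 0 rose and 5 did not pass the test. Across all lncRNAs tested, 4.87% were called lower in females. The members' median difference was -0.96 on the log2 scale, beside -0.09 over all lncRNAs tested. The 4 that fell were 3 of the row of intergenic lncRNAs and the long antisense lncRNA at the end of the window.

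ncRNA_inter_chr5_4332 had 0.927, 1.97 and 0.290 RPKM in female pools (7, 19 and 2 reads), against 7.44, 4.98 and 4.17 RPKM in male pools (24, 11 and 15 reads). All 3 female pools were below all 3 male pools, and the female pools differed among themselves more than the male pools did in proportion. The log2 difference was -2.54 (SE 0.55, adjusted p = 0.0298 with limma), a 5.83-fold lower value in females on the RPKM + 0.1 scale. ncRNA_inter_chr5_4330, which lies upstream in the same row, had 0.150, 1.06 and 0.472 RPKM in female pools, against 2.77, 1.73 and 4.18 RPKM in male pools. The groups again did not overlap, and the log2 difference was -2.36 (SE 0.55, adjusted p = 0.0379 with limma).

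ncRNA_inter_chr5_4329, the first of the row, had 0.0940, 0.341 and 0.206 RPKM in female pools, against 1.10, 0.731 and 1.29 RPKM in male pools. Its difference of -1.91 (SE 0.36, adjusted p = 0.018 with limma) had the lowest adjusted p of the 9. ncRNA_as_chr5_4334 was the best covered of the 4, with 494, 1323 and 500 reads in female pools and 882, 365 and 871 reads in the shallower male pools. These are 1.28, 2.68 and 1.42 RPKM in females, against 5.35, 3.23 and 4.74 RPKM in males. The groups were separate here too, and the difference of -1.31 (SE 0.31, adjusted p = 0.0414 with limma) was the smallest of the 4 called. Reads of ncRNA_as_chr5_4334 in these unstranded libraries cannot be assigned to a strand. In the stranded whole-liver libraries it had at most 1 read.

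The other 5 tested members had estimates below 0 that did not pass. For ncRNA_as_chr5_4328, with 190 to 638 reads a pool, the levels were 2.02, 2.58 and 2.69 RPKM in females and 2.86, 3.36 and 2.86 RPKM in males. Its log2 difference was -0.31, with a 95% interval of -0.73 to 0.11 (limma adjusted p = 0.327). The estimates of the remaining 4 ran from -0.96 (ncRNA_as_chr5_4325) to -0.36 (ncRNA_inter_chr5_4335), with limma adjusted p of 0.0863 to 0.519. ncRNA_inter_chr5_4331 and ncRNA_inter_chr5_4333 rested on 12 and 15 reads over the female pools and 10 reads each over the male pools. In 7 of the 9, all but ncRNA_inter_chr5_4333 and ncRNA_inter_chr5_4335, every female pool was below every male pool, which held for 19.6% of all lncRNAs tested.

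Of the 3 members not tested, ncRNA_inter_chr5_4326 had 0 reads in the female pools and 3, 0 and 3 in the male pools. ncRNA_inter_chr5_4336 had 0 in all 6, and ncRNA_inter_chr5_4337 at most 2 in any of them. Sex, experiment code and sequencing depth went together, so these cannot be told apart. In bulk RNA, fewer cells of a type and less RNA per cell cannot be told apart either. The calls leaned on single pools: 0 of the 4 remained without female pool 1, male pool 1 or male pool 3, and 1 remained without female pool 3. Without male pool 2 there were 3, and without female pool 2 all 4, while every estimate of these 4 stayed below 0. Over all lncRNAs, 233 were called higher and 290 lower in females, and with library medians set equal the split was 307 higher and 218 lower.

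**Figure D3:**
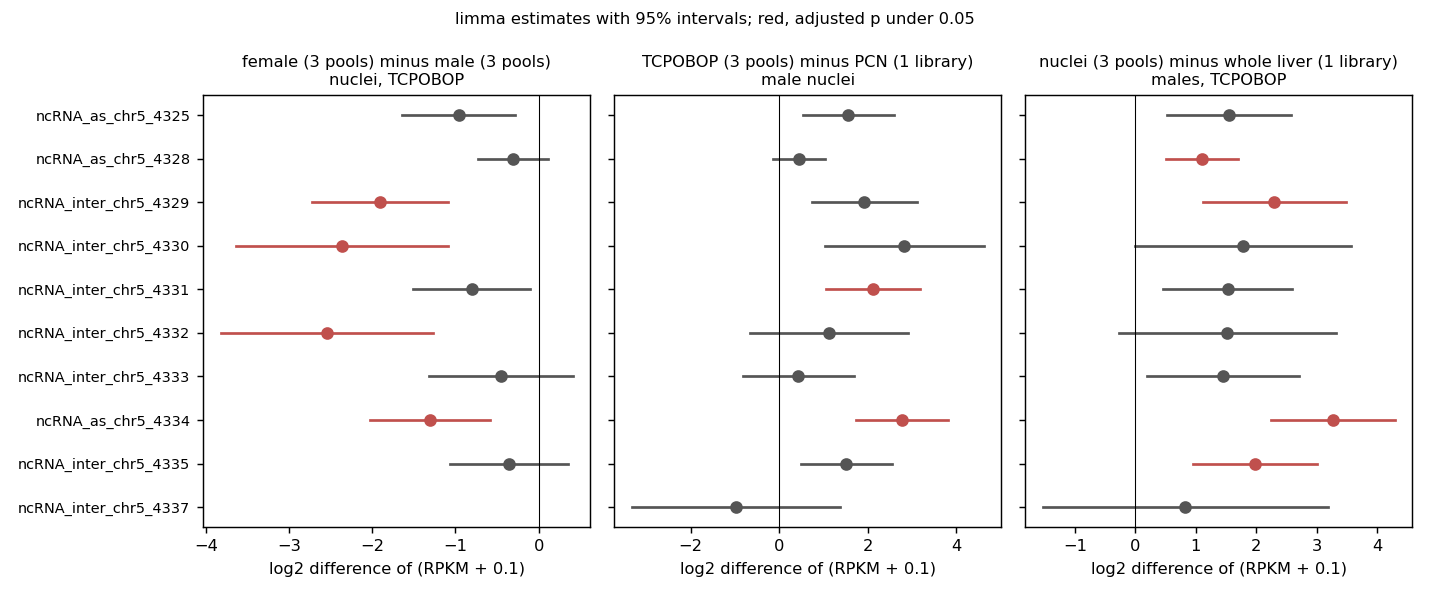
limma estimates on log2(RPKM + 0.1) with 95% intervals for the members tested in 3 comparisons, in order of position, with adjusted p under 0.05 in red. Female minus male estimates are all below 0, and nuclei minus whole-liver estimates are all above 0; the male nuclear TCPOBOP pools enter every panel, so the panels are not independent.

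The second comparison, TCPOBOP (G95) against PCN (G81) in male nuclei at 3 h, set the same 3 male pools against 1 library. It came from a fit of all 8 unstranded libraries, so the error of the lone PCN library is taken from the female and male pools. Only 1 of the 8 was from PCN, so a lncRNA high with PCN alone could not pass the filter, which limits what could fall. ncRNA_as_chr5_4325 and ncRNA_inter_chr5_4331 passed it through TCPOBOP libraries only. Of 10 members tested, 2 rose with TCPOBOP, 0 fell and 8 did not pass. Of all 6480 lncRNAs tested, 4.18% were called higher with TCPOBOP. By class, antisense lncRNAs were called higher with TCPOBOP more often than intergenic ones, and the median differences were 0.44 and 0.19. The members' median was 1.53, against 0.26 over all lncRNAs tested. It was 1.39 with ncRNA_inter_chr5_4331, whose PCN library was at 0, set against 3 reads in that library.

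ncRNA_as_chr5_4334, whose unstranded reads cannot be assigned to a strand, had 5.35, 3.23 and 4.74 RPKM in the TCPOBOP pools. It had 0.552 RPKM in the PCN library, from 187 reads. Its log2 difference was 2.77 (SE 0.44, adjusted p = 0.0154 with limma), 6.82-fold on the RPKM + 0.1 scale. ncRNA_inter_chr5_4331 was called on very few reads, 4, 2 and 4 in the TCPOBOP pools and 0 in the PCN library. It averaged 2.4-fold the value of 3 reads in the PCN library, without allowing for counting error in the TCPOBOP pools. Its fitted value of 2.12 (SE 0.46, limma adjusted p = 0.0429) depends on the constant of 0.1.

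The member with the largest estimate, ncRNA_inter_chr5_4330, did not pass. It had 2.77, 1.73 and 4.18 RPKM with TCPOBOP and 0.299 RPKM with PCN (14 reads), and its estimate of 2.82 (SE 0.78) had a limma adjusted p of 0.0765. ncRNA_inter_chr5_4329 had 1.10, 0.731 and 1.29 RPKM with TCPOBOP and 0.195 RPKM with PCN (limma adjusted p = 0.072). For ncRNA_inter_chr5_4332, the TCPOBOP pools had 4.17 to 7.44 RPKM and the PCN library 2.41 RPKM (16 reads). The log2 difference there was 1.12, with a 95% interval of -0.67 to 2.91 (limma adjusted p = 0.431).

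ncRNA_as_chr5_4328 again differed little, with 2.86 to 3.36 RPKM with TCPOBOP and 2.20 RPKM with PCN. Its estimate was 0.44 (95% interval -0.15 to 1.03, limma adjusted p = 0.352) and changed sign, to -0.01, after quantile normalization. In 8 of the 10 members every TCPOBOP pool lay above the PCN library, which held for 39.5% of all lncRNAs tested. The exceptions were ncRNA_inter_chr5_4333, and ncRNA_inter_chr5_4337 with at most 2 reads in any of these libraries. Agonist, experiment code, number of livers and sequencing depth went together here.

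Both calls were lost without male pool 1 or female pool 3, or with only the 2 groups compared in the fit; for ncRNA_as_chr5_4334 the adjusted p with limma was then 0.0566, 0.0511 and 0.0927. ncRNA_inter_chr5_4331 was also lost without female pool 1, female pool 2 or male pool 3. Over all lncRNAs, 271 were called higher and 68 lower with TCPOBOP, and 130 higher and 94 lower with library medians set equal. The balance turned over with no filter on low values, 234 higher and 329 lower, and with only the 2 groups in the fit, 43 higher and 100 lower.

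The next comparison was of male nuclei (G95) with male whole liver (G81), both unstranded and 3 h after TCPOBOP, again 3 pools against 1 library. All 10 members tested had estimates above 0, and 4 of them rose in nuclei, 0 fell and 6 did not pass. Of all 6480 lncRNAs tested, 8.73% were called higher in nuclei. The median was 1.54 over the members and 0.29 over all lncRNAs. Of the 8 libraries in the filter 7 were nuclear, so a lncRNA present in whole liver alone could not be tested. ncRNA_as_chr5_4325, ncRNA_inter_chr5_4331, ncRNA_inter_chr5_4333 and ncRNA_inter_chr5_4337 passed the filter through nuclear libraries only. The shared direction is therefore set in part by the filter, which was the same for all lncRNAs. By class, 24.8% of all antisense lncRNAs tested and 4.39% of all intergenic ones were called higher in nuclei. Among the members, 2 of 3 antisense and 2 of 7 intergenic lncRNAs tested were called.

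ncRNA_as_chr5_4334 had 5.35, 3.23 and 4.74 RPKM in nuclei and 0.361 RPKM in whole liver (225 reads). This was a log2 difference of 3.27 (SE 0.44, adjusted p = 0.00579 with limma), the largest of the 10, or 9.63-fold on the RPKM + 0.1 scale. ncRNA_as_chr5_4328 had 2.86, 3.36 and 2.86 RPKM in nuclei and 1.35 RPKM in whole liver (421 reads), a difference of 1.10 (SE 0.26, adjusted p = 0.0317 with limma). Whether these 2 differences are themselves unequal was not tested. Both rest on unstranded reads, which cannot be assigned to a strand.

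Among intergenic members, ncRNA_inter_chr5_4329 had 1.10, 0.731 and 1.29 RPKM in nuclei and 0.127 RPKM in whole liver (log2 difference 2.30, SE 0.51, limma adjusted p = 0.0278). ncRNA_inter_chr5_4335, which lies inside the span of ncRNA_as_chr5_4334 on the other strand, had 0.973, 0.554 and 1.39 RPKM in nuclei and 0.157 RPKM in whole liver. Its difference was 1.98 (SE 0.45, limma adjusted p = 0.0284). For ncRNA_inter_chr5_4332 the whole-liver library had 1.81 RPKM (22 reads), below the 4.17 to 7.44 RPKM of the nuclear pools, with a difference of 1.52 that did not pass (95% interval -0.27 to 3.31, limma adjusted p = 0.253). The nuclear pools of ncRNA_inter_chr5_4330 had 1.73 to 4.18 RPKM and the whole-liver library 0.721 RPKM (limma adjusted p = 0.185).

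In 9 of the 10 members, all but ncRNA_inter_chr5_4337, every nuclear pool lay above the whole-liver library, as it did for 41.0% of all lncRNAs tested. ncRNA_as_chr5_4334 kept its call without any 1 pool (limma adjusted p 0.00721 to 0.0227). The other 3 calls were each lost without male pool 1 or female pool 3. Without male pool 3, ncRNA_as_chr5_4328 and ncRNA_inter_chr5_4329 did not pass, without female pool 2 ncRNA_as_chr5_4328 and ncRNA_inter_chr5_4335 did not, and without female pool 1 ncRNA_inter_chr5_4335 did not. With only the 2 groups in the fit, 0 members passed. Over all lncRNAs, 566 were called higher and 172 lower in nuclei, and with library medians set equal 371 higher and 227 lower. With only the 2 groups in the fit the split was 103 higher and 116 lower. Compartment, experiment code, number of livers and sequencing depth went together. The nuclear PCN library, of the same code as the whole-liver library, was higher than it in 6 of the 9 members tested between the sexes. It differed from that library in agonist, number of livers and depth too. The share of all lncRNAs for which this held was not counted, so the 6 of 9 is a description only.

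The unstranded and stranded whole-liver libraries of TCPOBOP-treated males at 3 h differed in strand protocol, and there was 1 of each, so no test was made. At 0.5 RPKM or more in either library there were 3 members, and 1 of these, ncRNA_as_chr5_4328, was at least 4-fold higher without strand, as were 55.8% of all lncRNAs at that level. It had 1.35 RPKM and 421 reads without strand and 0 reads with it, 89.5-fold higher without strand when 3 reads are allowed. ncRNA_as_chr5_4334 had 225 reads without strand and 0 with it, 47.9-fold higher with the same allowance. Over all 4 stranded libraries, ncRNA_as_chr5_4328 had 0 reads and ncRNA_as_chr5_4334 had 1.

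The other 10 members differed by at most 1.54 on the log2(RPKM + 0.1) scale. The third antisense lncRNA, ncRNA_as_chr5_4325, had 15 reads and 0.0269 RPKM without strand and 10 reads and 0.0282 RPKM with it. ncRNA_inter_chr5_4332 had 1.81 RPKM without strand and 1.29 RPKM with it, a ratio of 1.40 with an exact interval of 0.638 to 3.32 for counting error. ncRNA_inter_chr5_4330 had 0.721 RPKM without strand and 0.182 RPKM with it, a ratio of 3.96 with an interval of 2.01 to 8.65. ncRNA_inter_chr5_4335 had 0.157 RPKM without strand and 0.0411 RPKM with it, a ratio of 3.83 with an interval of 1.6 to 11.1. Antisense members took 79.7% to 87.8% of the members' reads in the 8 unstranded libraries. In the 4 stranded ones their share was lowest with PCN at 3 h, 4 of 42 reads or 9.52%, and highest with TCPOBOP at 6 h, 13 of 52 reads.

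**Figure D4:**
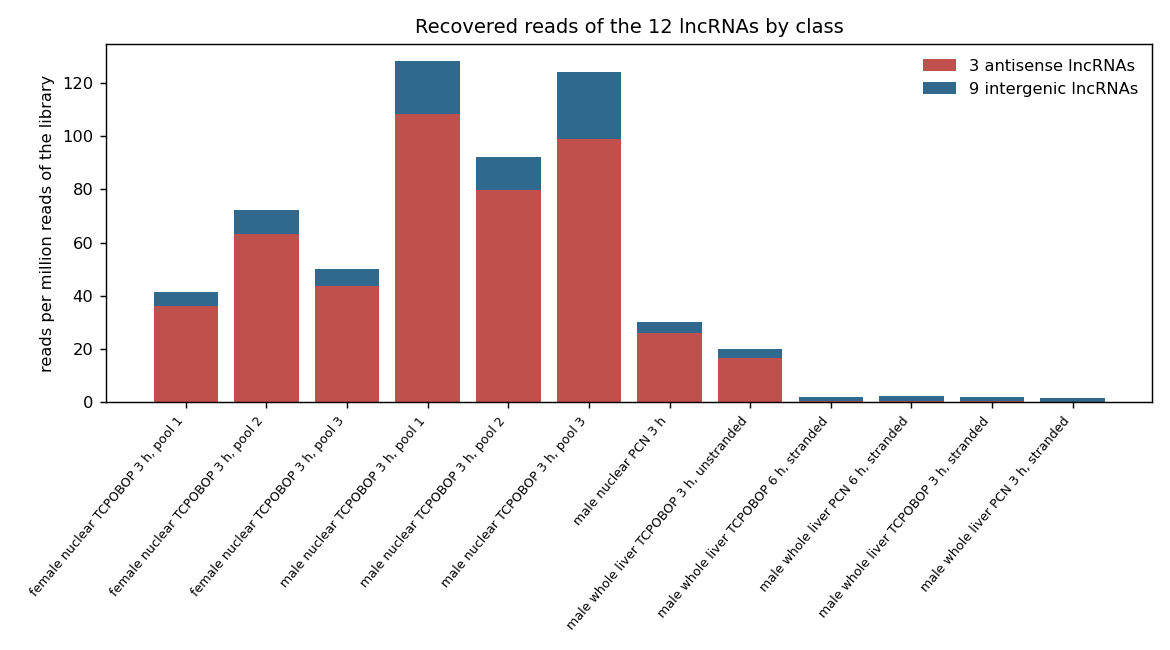
Recovered reads of the 12 lncRNAs per 1e6 reads of each library, stacked by class, with antisense reads in red and intergenic reads in blue. Antisense reads make up most of each bar in the 8 unstranded libraries, and the 4 stranded bars stay between 1.634 and 2.424 reads per 1e6.

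In stranded whole liver, TCPOBOP was compared with PCN at 6 h and at 3 h, 1 library each. An additive fit of the 4 libraries, with 1 residual degree of freedom, called 0 of the 4 members that passed the filter. It called 0.0% of all 2270 lncRNAs for the agonist (162 at an unadjusted p under 0.05; limma-voom called 2). It also called 0.0% for 6 h against 3 h (273 at an unadjusted p under 0.05; limma-voom called 0), so the fit gives no background of calls to read the members against. The members' median was -0.64 for the agonist and -0.34 for time, beside 0.04 and -0.16 over all lncRNAs tested. Livers at 6 h were also taken later in the day than those at 3 h, per the labels. Time after injection and time of day therefore cannot be told apart. All 12 members together had only 42 to 61 reads in each stranded library.

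ncRNA_inter_chr5_4332 had reads after TCPOBOP only, 2 at 6 h and 10 at 3 h, against 0 in both PCN libraries. At 3 h these were 1.29 RPKM with TCPOBOP (exact Poisson 95% interval 0.618 to 2.37) and 0 with PCN (upper limit 0.475). That is 3.33-fold the value of 3 reads with PCN, without allowing for counting error in the TCPOBOP reads. At 6 h it was 0.238 RPKM with TCPOBOP (0.0288 to 0.859) and 0 with PCN (upper limit 0.485), so no difference was detectable. Over both times ncRNA_inter_chr5_4332 averaged, after TCPOBOP, 1.95-fold the value of 3 reads with PCN (limma adjusted p = 0.602 in the additive fit). It was the 1 member of at least 0.5 RPKM at 3 h, and it was past 4-fold on the RPKM + 0.1 scale, as were 3.63% of all lncRNAs at that level. With a constant of 1 in place of 0.1 it was not.

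ncRNA_inter_chr5_4337 went the other way at 6 h, with 0.0978 RPKM after TCPOBOP (1 read) and 1.52 RPKM after PCN (14 reads). The ratio of TCPOBOP to PCN was 0.0646, with an exact interval of 0.00153 to 0.424 for counting error. At 3 h it had 1 read with TCPOBOP and 0 with PCN. Its neighbour ncRNA_inter_chr5_4336, 145 bases away on the same strand, had 0.0824 RPKM after TCPOBOP at 6 h (3 reads) and 0.516 RPKM after PCN (17 reads), a ratio of 0.159 with an interval of 0.0299 to 0.551. The PCN library at 6 h was the highest of the 12 for both of these short lncRNAs. At 6 h there were 2 members of at least 0.5 RPKM and 1, ncRNA_inter_chr5_4337, was past 4-fold on the RPKM + 0.1 scale, as were 4.06% of all lncRNAs at that level.

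The remaining intergenic members gave small values. ncRNA_inter_chr5_4330 had 0.118 RPKM with TCPOBOP and 0.149 RPKM with PCN at 6 h, and 0.182 RPKM with TCPOBOP and 0.328 RPKM with PCN at 3 h. Its agonist estimate was -0.40 (95% interval -1.30 to 0.50, limma adjusted p = 0.797). ncRNA_inter_chr5_4333, with 1 to 5 reads a library, had 0.0278 RPKM with TCPOBOP and 0.123 RPKM with PCN at 6 h, and 0.0301 RPKM with TCPOBOP and 0.150 RPKM with PCN at 3 h (limma adjusted p = 0.596). For 6 h against 3 h, the lowest adjusted p of the 4 tested members was 0.52 with limma.

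**Figure D5:**
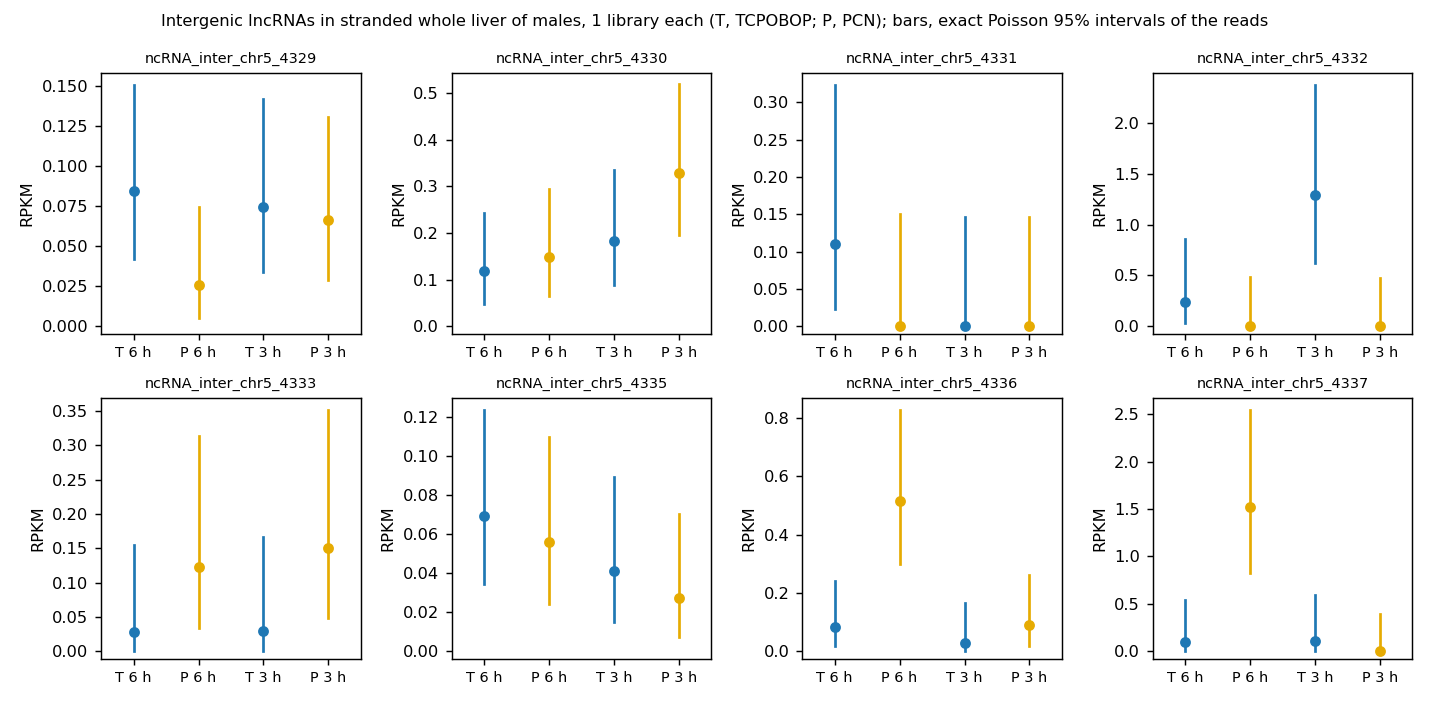
RPKM of 8 intergenic lncRNAs in the 4 stranded whole-liver libraries, 1 library for each point, with exact Poisson 95% intervals of the reads as bars. ncRNA_inter_chr5_4332 has reads after TCPOBOP only, and ncRNA_inter_chr5_4336 and ncRNA_inter_chr5_4337 are highest after PCN at 6 h; most other intervals overlap widely.

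Over the 8 unstranded libraries, the patterns of the row of intergenic lncRNAs were not all alike. The Pearson correlation of log2(RPKM + 0.1) was 0.941 between ncRNA_inter_chr5_4329 and ncRNA_inter_chr5_4330, and 0.953 between the antisense ncRNA_as_chr5_4325 and ncRNA_as_chr5_4334 at opposite ends of the window. For ncRNA_inter_chr5_4332 it was 0.752 with ncRNA_inter_chr5_4329 and 0.345 with ncRNA_inter_chr5_4331 (at most 5 reads in any library), both in the row. With ncRNA_inter_chr5_4335, outside the row, it was 0.185. These points share sex, compartment and depth, so the correlations only describe the 8 libraries.

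The lncRNAs elsewhere with the pattern most like that of ncRNA_inter_chr5_4332 were sought among 1532 with a mean of at least 0.5 RPKM, by Pearson's r over all 12 libraries. The nearest was ncRNA_inter_chr15_12772 (chr15:82473636-82474902), with r = 0.926. ncRNA_intra_chr1_606 (chr1:141518435-141670504) with 0.906, ncRNA_inter_chr4_3052 (chr4:10881695-10901253) with 0.901, ncRNA_inter_chr5_4601 (chr5:123439363-123448350) with 0.900 and ncRNA_inter_chr16_13177 (chr16:24271005-24296353) with 0.899 came next. The 12 points share strand protocol and compartment, and the values are a description.

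Beyond the window, 3 lncRNAs were above 0 within 1 Mb on either side. ncRNA_inter_chr5_4338 (chr5:87977272-87980650) moved opposite to the members between the sexes, higher in females by 1.27 on the log2 scale (SE 0.18, limma adjusted p = 0.00651). In male nuclei it was higher by 1.66 with TCPOBOP than with PCN (limma adjusted p = 0.0185), and by 1.70 than in whole liver (limma adjusted p = 0.00963). ncRNA_inter_chr5_4323 (chr5:86494797-86495617) passed none of these tests, with limma adjusted p of 0.36 to 0.742. ncRNA_inter_chr5_4324 (chr5:86536715-86537259) reached at most 0.154 RPKM.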

How the data were processed

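The authors deposited RPKM values per lncRNA, as the column headers say, although the sheet itself is named FPKM. Reads were aligned with TopHat2 to mm9, per the submitters' processing notes. For the aligner version, counter, strand setting and annotation, nothing is given in the sources used here. Of 25 value columns, 12 matched a library's labels and 13 were not used. The values stepped in whole reads: with fitted library totals and lncRNA lengths, 100.0% of 89242 values above 0 were whole within 1e-06 of a read. From the RPKM, log2(RPKM + 0.1) was fitted with limma 3.58.1 in R 4.3.3 (mean-variance trend, Benjamini-Hochberg adjustment over all lncRNAs tested). The filter was 0.1 RPKM in 3 of 6 or of 8 libraries, or in 2 of 4. Comparisons of 1 library with 1 library have no test and used 0.5 RPKM in either. Checks on simulated data recovered large known changes in the fits of unstranded libraries. Those changes were set in lncRNAs above 1 RPKM and without counting error. They therefore do not cover members with few reads, and no recovery was required of the stranded fit. Alternatives were other constants, filters, scalings, limma-voom on recovered reads, pools left out, a pool-number block and other sets of libraries. Labels tie pools to no shared animals. In the comparison of the sexes, p-values measure the spread between these pools. Where 3 pools were set against 1 library, the spread of that library was taken from the pools. In the stranded fit the agonist-by-time term was the only error. Members and lists were chosen with earlier results of these data known. Named with values were members with a mean of 0.5 RPKM, ncRNA_inter_chr5_4332, members called in any fit, and members 4-fold apart between single libraries.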

Additional observations from a re-analysis of the deposited data

Results flagged for a closer look

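For ncRNA_inter_chr5_4330, the estimates of TCPOBOP minus PCN had opposite signs in the 2 kinds of male RNA, and neither passed its test (limma adjusted p of 0.0765 in nuclei and 0.797 in stranded whole liver). In nuclei all 3 TCPOBOP pools lay above the PCN library, by 2.82 on the log2 scale on average. In stranded whole liver the average of both times was -0.40, with a 95% interval of -1.30 to 0.50 that includes no change. The difference of the estimates was 3.22, and it was not tested. The stranded values rest on 7 to 18 reads a library, and compartment, strand protocol and experiment code all differ between the contrasts.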

How the results depend on the processing

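Between females and males, 4 members were called. The count was 1 with a constant of 0.01 RPKM, 1 with no filter on low values, 2 with the pool number as a replicate block, and 0 to 4 with 1 pool left out. Same-numbered pools did not deviate together (correlations of -0.018, -0.074 and 0), so the numbers name pools only; the block gave 287 calls over all lncRNAs, against 523. No filter gave 334 calls, a mean of at least 1 RPKM 239 and leaving out a pool 205 to 460. For TCPOBOP against PCN in nuclei, 2 members were called; there was 1 with a constant of 1, 1 with medians set equal, 1 with quantile normalization, 6 with limma-voom on recovered reads, 0 with only the 2 groups compared, and 0 to 3 with a pool left out. Calls over all lncRNAs were 339, but 684 with limma-voom, 563 with no filter, 224 with medians set equal, 143 with the 2 groups and 127 to 407 with a pool left out. For nuclei against whole liver, 4 members were called; there were 2 with no filter, 2 with a mean of at least 1 RPKM, 2 with medians set equal, 8 with limma-voom, 0 with the 2 groups, and 1 to 5 with a pool left out. Calls over all lncRNAs were 738, but 1523 with limma-voom, 219 with the 2 groups and 470 to 801 with a pool left out. The additive fit of stranded libraries called 0 members under each alternative that left a member to test; a mean of at least 1 RPKM left 0 members. Over all lncRNAs it called 67 for the agonist and 122 for time with the spread taken from all 12 libraries, and 17 and 27 with a mean of at least 1 RPKM. Members at least 4-fold apart between single libraries numbered 0 with a constant of 1 for strand protocol, for the agonist at 6 h and for the agonist at 3 h, and 2 with a constant of 0.01 for the agonist at 6 h. Of 454 member values under an alternative, 381 kept direction and side of the threshold, 58 lost their call, 12 gained one and 3 changed sign. Those 3 were ncRNA_as_chr5_4328 for TCPOBOP against PCN in nuclei after quantile normalization (-0.01), and ncRNA_inter_chr5_4333 for 6 h against 3 h with medians set equal (0.06) and after quantile normalization (0.10). The cause of these changes was not tested. Depth limits many members: 6 of the 12 had at most 128 reads over all libraries, and the other 6 had 279 to 4848.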
